A study of Mus musculus with 8 samples.

Results

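The endoplasmic reticulum (ER) is where secreted and membrane proteins are folded, and 35 genes of its folding machinery and of the unfolded protein response were followed in mouse leukemia macrophages. The genes were taken by symbol from a table of 53647 genes, and all 35 were found there. They comprised 5 sensors and regulators, 12 chaperones and co-chaperones, 6 disulfide enzymes, 8 genes of ER degradation, and 4 of protein translocation and export. Sorted C57BL/6 leukemia macrophages had been cultured for 12 h alone (Mac, 4 libraries) or together with mesenchymal stromal cells, MSC (E-Mac, for MSC-educated macrophages, 4 libraries). Both groups carried the same strain and cell type labels, and co-culture was the one labelled difference. The leukemia model, the sort gate, the age of the mice and the origin of the MSC are not stated in the labels. Nothing in the labels ties the libraries to separate animals or cultures. The p-values thus set the difference between groups only against the spread within these samples, and part of that spread may be technical.

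When unfolded proteins build up in the ER, the membrane sensors IRE1 (Ern1), PERK (Eif2ak3) and ATF6 (Atf6) are activated. IRE1 splices the mRNA of Xbp1 into a form that encodes an active transcription factor, ATF6 is cut to release another, and PERK slows translation by phosphorylating eIF2. The targets are chaperones, oxidoreductases that form disulfide bonds, and the machinery that sends misfolded proteins to the proteasome (ER-associated degradation). Counts per gene give transcript levels alone, so Xbp1 splicing, ATF6 cleavage and PERK phosphorylation were not measured here.

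In E-Mac 10 of 12 chaperones and 5 of 6 disulfide enzymes were higher, and none of the 5 sensors and regulators. Of the 35 genes 34 passed the filter on low counts. Of these 22 rose and 5 fell at an adjusted p under 0.05, so 27 of 34 (79.4%) were called, where 58.3% of all 13412 genes tested were. The share that rose was 64.7% against 29.5% of all genes tested, and the share that fell 14.7% against 28.8%. Within the roles the share called was 91.7% in chaperones, 100% in disulfide enzymes and 75% in translocation and export. It was 60% in sensors and regulators and 57.1% in ER degradation, both near the share over all genes tested. By 2-fold or more, 8 rose and 1 fell (23.5 and 2.9% of the 34, against 9.57 and 10.5% of all genes tested). In 26 of the 34 (76.5%, against 53.9% of all genes tested) the groups did not overlap, each library of one being above each of the other. The median log2 fold change, E-Mac over Mac, was 0.39 over the 34 genes and -0.003 over all genes tested. It was 0.25 for the 34 and -0.15 for all genes when libraries were scaled by total counts alone. That scaling left 19 of the 34 higher and 9 lower, and among all genes called 37.4% were then higher, against 50.6% with the scaling used here (TMM, a trimmed mean of ratios).

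**Figure D1:**
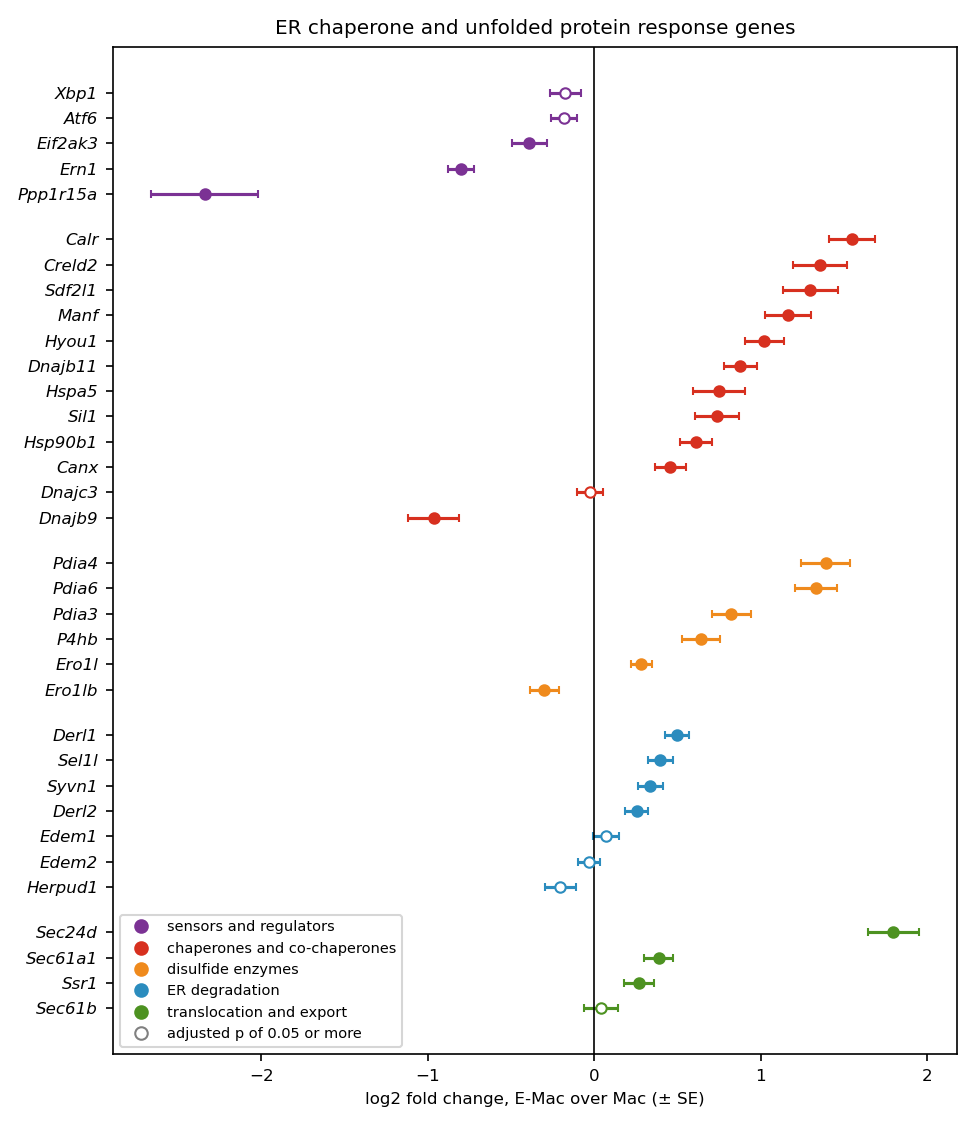
Log2 fold change (E-Mac over Mac, x axis) ± SE of the 34 tested genes (y axis), coloured by role, with open circles for an adjusted p of 0.05 or more. The 5 sensors and regulators lie below 0, while 10 of 12 chaperones and 5 of 6 disulfide enzymes lie above it with filled circles.

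Levels are given as CPM, counts per 1000000 counts of a library after TMM scaling, as mean ± SD over 4 libraries, and differences as log2 fold change ± SE. Among the 5 sensors and regulators 3 fell and none rose, so 60% were called, near the 58.3% of all genes tested. Ern1, which encodes the sensor and RNA-splicing enzyme IRE1, stood at 113, 105, 111 and 120.0 CPM in Mac 1 to 4 and at 74.1, 59.3, 63.5 and 61.6 CPM in E-Mac 1 to 4. All E-Mac libraries were below all Mac libraries, and the level fell by 0.80 ± 0.08 on the log2 scale (adjusted p = 1.66e-06). Eif2ak3, the gene for the eIF2 kinase PERK, was at 70.8, 68.1, 72.7 and 74.3 CPM in Mac and at 46.0, 52.5, 52.0 and 68.0 CPM in E-Mac. E-Mac 4 nearly reached the lowest Mac library, and the log2 fold change was -0.39 ± 0.10 (adjusted p = 0.00536).

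Ppp1r15a, also known as GADD34, directs a phosphatase to eIF2 and so reverses the action of PERK. It showed the widest change of the 34, from 83.1, 231, 137 and 102 CPM in Mac to 24.3, 28.5, 26.8 and 29.2 CPM in E-Mac. The Mac libraries differed among themselves, with Mac 2 the highest, but even the lowest Mac library lay well above every E-Mac library. The log2 fold change was -2.34 ± 0.32, a 5.06-fold lower level (adjusted p = 0.000393), and -1.97 without Mac 2. Xbp1, the transcription factor gene that IRE1 splices, was even in Mac at 251, 252, 257 and 256 CPM and split in E-Mac at 256, 212, 249 and 184 CPM. E-Mac 1 and 3 matched Mac while E-Mac 2 and 4 were lower, and the difference did not pass (-0.17 ± 0.09, adjusted p = 0.130). Atf6 did not pass either, at 150.2 ± 10.7 CPM in Mac and 133 ± 11.7 CPM in E-Mac (-0.18 ± 0.08, adjusted p = 0.0667). Both were called lower with total-count scaling (adjusted p = 0.00951 for Xbp1 and 0.00223 for Atf6), with upper-quartile factors (adjusted p = 0.0169 and 0.00598) and when E-Mac 1 was left out (adjusted p = 0.0440 and 0.0365). Over all alternatives their adjusted p ran from 0.00951 to 0.991 and from 0.00223 to 0.224. Atf6 was also called lower without Mac 1 (adjusted p = 0.0497) and with a filter of at least 10 CPM in 4 libraries (adjusted p = 0.0262).

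Of the 12 chaperones and co-chaperones 10 rose, 1 fell and 1 did not pass, with a median log2 fold change of 0.82. Hspa5, which encodes BiP, the HSP70 of the ER that also holds the sensors inactive, was at 522, 749.7, 611 and 533 CPM in Mac and at 1184, 924, 1197 and 760.1 CPM in E-Mac. Mac 2 nearly reached E-Mac 4, yet the groups did not overlap (0.75 ± 0.16, adjusted p = 0.00169). Calr, the gene for the lectin chaperone calreticulin, rose the most of the chaperones, from 347, 355, 381 and 395 CPM to 1266, 988, 1283 and 791 CPM. Even the lowest E-Mac library lay far above the highest Mac library, and the log2 fold change was 1.55 ± 0.14 (adjusted p = 1.02e-06). Canx, the membrane-bound relative calnexin, rose less, from 319 ± 8.35 to 438 ± 62.5 CPM (0.46 ± 0.09). Hsp90b1, which encodes GRP94, the HSP90 of the ER, went from 417 ± 8.16 to 637 ± 98.9 CPM (0.61 ± 0.10).

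The helpers of BiP moved in both directions. Hyou1 and Sil1, nucleotide exchange factors that let BiP release its substrate, rose (1.02 ± 0.12 and 0.74 ± 0.13). Dnajb11, a J-domain protein that brings unfolded chains to BiP, rose from 100.5 ± 4.24 to 185 ± 28.0 CPM (0.88 ± 0.10, adjusted p = 5.24e-06). Dnajb9, another J-domain protein, which recruits BiP to IRE1 and aids degradation, fell instead. It was at 48.2, 84.8, 56.5 and 52.2 CPM in Mac and at 32.1, 30.3, 30.4 and 30.6 CPM in E-Mac, so the E-Mac libraries were nearly equal and Mac 2 stood out above the other Mac libraries (-0.96 ± 0.15, adjusted p = 0.000187). The fold was -0.75 without Mac 2, and the call was lost without E-Mac 2 and 4 with a fold about as large (-0.93, adjusted p = 0.0513, range over all alternatives 1.01e-08 to 0.0513). Dnajc3, a J-domain protein also called p58IPK, did not pass, at 137 ± 9.25 and 135 ± 11.2 CPM (-0.02 ± 0.08, adjusted p = 0.799).

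Sdf2l1, Manf and Creld2 encode small secretory-pathway proteins known as targets of the response, and each was over 2-fold higher in E-Mac. Creld2 was at 25.6, 22.0, 24.0 and 25.2 CPM in Mac and at 73.4, 51.9, 78.0 and 45.1 CPM in E-Mac (1.36 ± 0.16, adjusted p = 1.93e-05). Sdf2l1, a partner of J-domain proteins, rose from 39.5 ± 4.21 to 97.2 ± 24.3 CPM (1.30 ± 0.16), and Manf, a BiP-binding neurotrophic factor, from 49.7 ± 1.83 to 111 ± 25.7 CPM (1.16 ± 0.14). In all of them E-Mac 1 and 3 were above E-Mac 2 and 4, and E-Mac 4 was the lowest.

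Disulfide enzymes followed the chaperones, with 5 of 6 higher, 1 lower and a median log2 fold change of 0.73. Pdia4, a protein disulfide isomerase, was at 69.3, 60.9, 66.9 and 63.2 CPM in Mac and at 206, 147, 204 and 126 CPM in E-Mac. The groups were far apart, and the log2 fold change was 1.39 ± 0.15 (adjusted p = 1.08e-05). Pdia6, the isomerase that can also switch off IRE1, rose from 141 ± 5.09 to 356 ± 73.6 CPM (1.33 ± 0.12). Pdia3, the partner of calreticulin and calnexin on glycoproteins, rose from 423 ± 8.40 to 748 ± 147 CPM (0.82 ± 0.12), and P4hb, the founding isomerase PDI, from 511 ± 19.8 to 797 ± 151 CPM (0.64 ± 0.11). The oxidases that recharge these enzymes split. Ero1l (ERO1-alpha) was at 107, 111, 100.01 and 102 CPM in Mac and at 130.2, 130.3, 119.5 and 129.7 CPM in E-Mac, a small rise with groups apart (0.28 ± 0.06, adjusted p = 0.00189). Its paralog Ero1lb (ERO1-beta) was at 63.4, 62.0, 59.3 and 64.7 CPM in Mac and at 53.9, 45.9, 58.5 and 44.6 CPM in E-Mac, and fell (-0.30 ± 0.09, adjusted p = 0.0118). Ero1l was not called with total-count scaling (adjusted p = 0.0785, range over all alternatives 0.000141 to 0.0785), and Ero1lb was not called without E-Mac 2 and 4 (adjusted p = 0.0965, range 0.000921 to 0.0965).

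**Figure D2:**
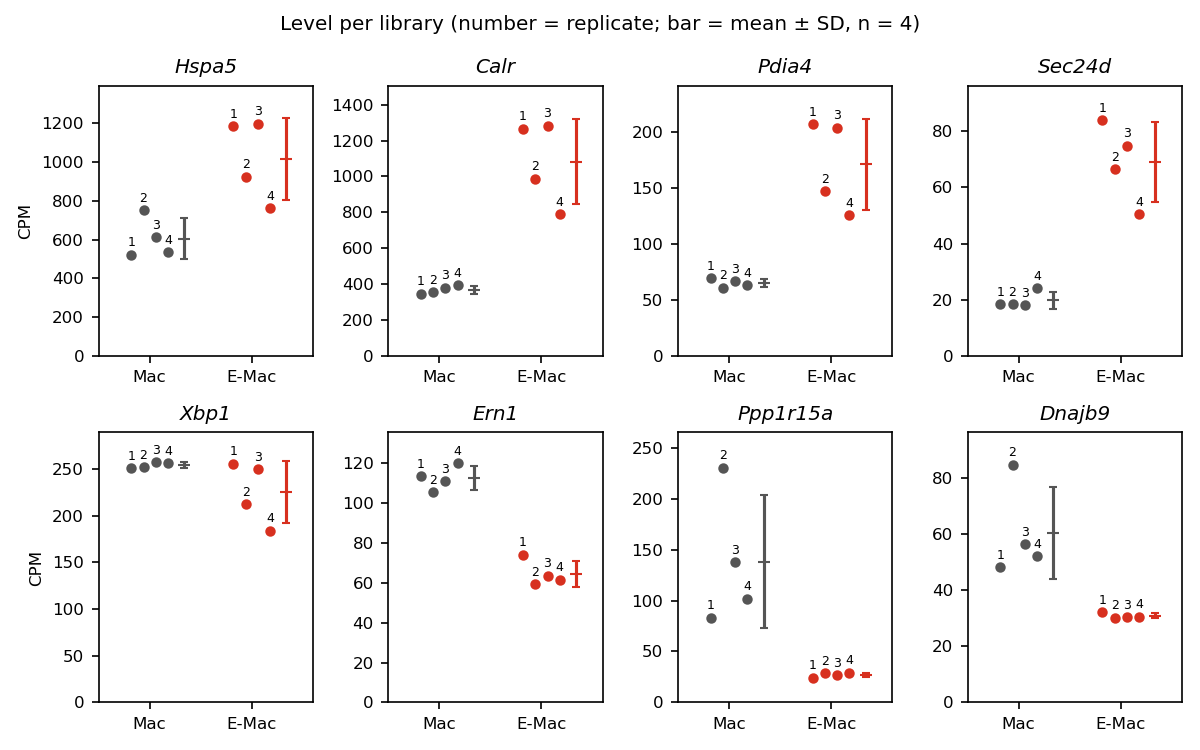
CPM (y axis) of 8 genes in each library of Mac (grey) and E-Mac (red), with the replicate number above each point and the mean ± SD (n = 4) at the right of each group. Hspa5, Calr, Pdia4 and Sec24d are higher in every E-Mac library, and Ern1, Ppp1r15a and Dnajb9 are lower in every one. E-Mac 1 and 3 lie above E-Mac 2 and 4 for Hspa5, Calr, Pdia4, Sec24d, Xbp1 and Ern1.

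ER degradation moved little: 4 of the 7 tested genes rose, none fell, and the log2 fold changes ran from -0.20 to 0.50. The share called, 57.1%, was near the 58.3% of all genes tested. Derl1, a channel component through which misfolded proteins leave the ER, was at 124, 150.2, 139 and 135 CPM in Mac and at 192, 201, 196 and 184 CPM in E-Mac (0.50 ± 0.07, adjusted p = 4.7e-05). Here the E-Mac libraries were close to each other. The ubiquitin ligase gene Syvn1 (HRD1; 0.34 ± 0.08) and its partner Sel1l (0.40 ± 0.08) rose as well, as did Derl2 (0.26 ± 0.07, adjusted p = 0.00554). The mannosidase-like genes Edem1 and Edem2, whose products mark glycoproteins for degradation, did not pass (0.07 ± 0.08 and -0.03 ± 0.07), nor did Herpud1, a scaffold of the ligase complex (-0.20 ± 0.10, adjusted p = 0.0860). Herpud1 was 86.6, 117, 96.0 and 94.6 CPM in Mac and 77.9, 82.7, 85.7 and 96.2 CPM in E-Mac, with overlapping groups. Derl3, a member of the Derl family, was too low to test, with 1, 8, 14 and 11 counts in Mac and 4, 2, 1 and 0 counts in E-Mac.

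Of these, Derl2 was not called with total-count scaling (adjusted p = 0.177, range over all alternatives 0.000835 to 0.177). The value of Edem1 turned to -0.03 under upper-quartile and -0.07 under total-count scaling, and it was called higher without E-Mac 2 and 4 (0.19, adjusted p = 0.00393, range 0.00393 to 0.770). Herpud1 was called lower in 6 alternatives (0.00659 to 0.406 over all), among them those lacking Mac 1, E-Mac 4, or both E-Mac 2 and E-Mac 4 (adjusted p = 0.0436, 0.0271 and 0.0375). Edem2 was called lower with total-count scaling alone (-0.17, adjusted p = 0.0355, range 0.0355 to 0.994).

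In translocation and export 3 of 4 genes rose. Sec24d, a cargo adaptor of the COPII coat that carries proteins out of the ER, showed the largest rise of all 34. It was at 18.5, 18.3, 18.1 and 24.2 CPM in Mac and at 84.0, 66.4, 74.8 and 50.5 CPM in E-Mac, with every E-Mac library above the whole Mac range. The log2 fold change was 1.80 ± 0.15, a 3.48-fold higher level (adjusted p = 6.91e-07). Among subunits of the translocon, the channel into the ER, the pore gene Sec61a1 rose from 148 ± 4.99 to 193 ± 25.0 CPM (0.39 ± 0.09), while Sec61b did not pass (74.3 ± 7.07 and 76.6 ± 11.0 CPM, 0.04 ± 0.10). The value of Sec61b turned to -0.06 under upper-quartile and -0.10 under total-count scaling, and it was called higher without E-Mac 2 and 4 (0.21, adjusted p = 0.0151, range over all alternatives 0.0151 to 0.987). Ssr1, of the translocon-associated TRAP complex, rose (0.27 ± 0.09, adjusted p = 0.0219) with overlapping groups, and lost its call in 6 alternatives, with total-count scaling (adjusted p = 0.263), upper-quartile factors (0.108), and without Mac 1, Mac 3, E-Mac 1 or E-Mac 3 (0.0553, 0.0531, 0.0592 and 0.0575; range 1.28e-07 to 0.263). Its log2 fold changes were then 0.13, 0.17, 0.26, 0.27, 0.20 and 0.23, in the same order.

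Levels of different genes were compared per length, as RPKM (CPM divided by the length of a gene's merged exons in kilobases). In Mac the highest were P4hb at 179 ± 6.93 RPKM, Hspa5 at 143 ± 24.8, Pdia3 at 135 ± 2.68 and Calr at 128 ± 7.82. The ranges of mean ± SD of Hspa5, Pdia3 and Calr overlapped. In E-Mac the order of these genes was headed by Calr at 376 ± 82.1 RPKM, followed by P4hb at 279 ± 52.7, Hspa5 at 240.3 ± 50.2 and Pdia3 at 238 ± 46.9. Here the range of Calr overlapped that of P4hb, and the ranges of P4hb, Hspa5 and Pdia3 overlapped. Ppp1r15a moved from the tenth place (47.1 ± 22.3 RPKM) to the 29th of the 35 (9.26 ± 0.735 RPKM), and Pdia6 from the 13th to the sixth. The place of Ppp1r15a in Mac is loose. Its range there overlapped those of Canx in the 7th place (68.0 ± 1.78 RPKM) and Dnajc3 in the 17th (26.6 ± 1.80 RPKM). The sensors Ern1 and Eif2ak3 were low in both groups, at 13.8 ± 0.740 and 11.9 ± 0.443 RPKM in Mac and 7.91 ± 0.796 and 9.06 ± 1.56 RPKM in E-Mac.

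**Figure D3:**
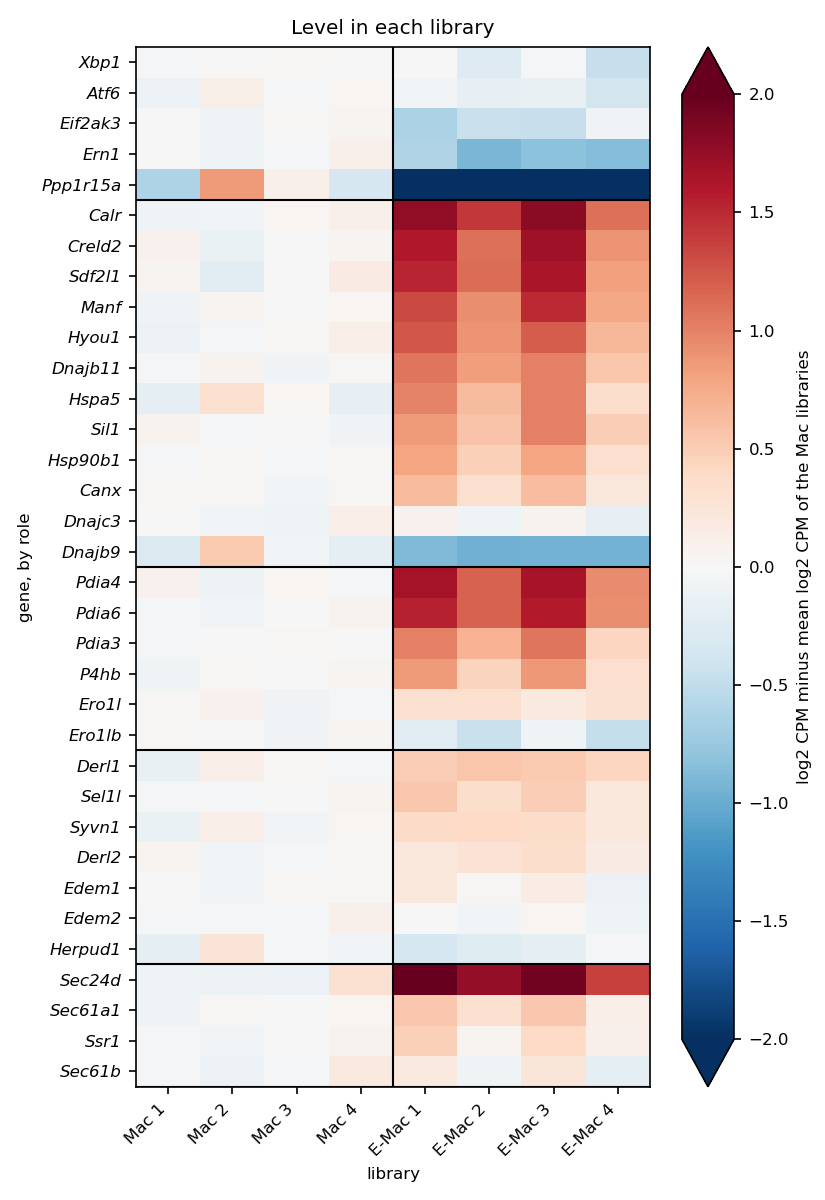
Log2 CPM of the 34 tested genes (rows, grouped by role) in each of the 8 libraries (columns), minus the mean log2 CPM of the gene over the Mac libraries; the colour scale ends at -2 and 2. Of the 12 chaperones 11, and of the 6 disulfide enzymes 5, are higher in E-Mac 1 and 3 than in E-Mac 2 and 4, while Ppp1r15a and Dnajb9 are blue in all 4 E-Mac libraries.

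The ER stress response element (ERSE) is the promoter motif through which ATF6, with the CCAAT-binding factor NF-Y, acts on chaperone genes. It was searched as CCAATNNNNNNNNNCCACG on both strands of the promoters in RefSeq's table (GRCm38.p6), which run from 250 bases before to 50 bases after a gene's start. Of the 35 genes 29 had an entry, and 10 of these (34.5%) held an ERSE, whereas 37 of all 27025 genes with an entry (0.14%) did. The listed genes were chosen as genes of this response, whose known targets include chaperones, so a larger share among them is no separate result. The 10 were Hspa5, Hsp90b1, Calr, Canx, Dnajc3, Creld2, Pdia6, Ero1lb, Syvn1 and Derl3. The related ERSE-II, ATTGG and CCACG with 1 base between them, was found in Dnajb11 and Herpud1 (6.9%, against 0.04% of all genes). Of the 9 tested genes with an ERSE 7 rose, Ero1lb fell and Dnajc3 did not pass, with a median log2 fold change of 0.61. Of the 19 tested genes with an entry but no ERSE in this window, 10 rose and 4 fell, with a median of 0.26. These 19 include the sensors and regulators Xbp1, Ern1, Eif2ak3 and Ppp1r15a, so the medians compare genes of unlike roles. Of the genes without an entry, Manf, Hyou1, Sil1, Derl1 and Sec61a1 rose and Atf6 did not pass. The part of the ERSE in these changes was not tested. The core of the UPR element, TGACGTG, stood in Hspa5 and Sec24d (6.9%, against 2.22% of all genes). The ATF4 element searched, TGATGNAAN, was in Herpud1 (3.4%, against 4.5%). A match is a description of these letters and not evidence of binding.

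The following promoter stretches are printed to show the element in genes that rose (Hspa5, Calr, Creld2, Pdia6, Dnajb11), did not pass (Dnajc3, Herpud1) or fell (Ero1lb, listed by RefSeq as Ero1b). Each is read 5′ to 3′ along the gene's strand on GRCm38.p6, and capitals mark the ERSE, the ERSE-II of Dnajb11 and Herpud1, and in Hspa5 also the UPR element core upstream of the ERSE. In Calr, Creld2 and Ero1lb the element lies on the opposite strand and so appears as its reverse complement. The Hspa5 window is shown whole, and the others with 20 bases on either side of the element.
Hspa5, chr2:34771840-34772139, plus strand: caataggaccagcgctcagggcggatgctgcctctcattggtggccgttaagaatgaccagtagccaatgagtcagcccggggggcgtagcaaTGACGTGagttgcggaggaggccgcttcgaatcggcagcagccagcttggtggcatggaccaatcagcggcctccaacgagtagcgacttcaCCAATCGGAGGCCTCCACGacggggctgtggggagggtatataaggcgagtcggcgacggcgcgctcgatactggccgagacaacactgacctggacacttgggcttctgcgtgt
Calr, chr8:84847055-84847113, minus strand: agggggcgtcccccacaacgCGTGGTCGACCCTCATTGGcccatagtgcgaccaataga
Creld2, chr15:88819500-88819558, plus strand: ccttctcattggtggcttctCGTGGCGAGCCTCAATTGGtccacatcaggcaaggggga
Pdia6, chr12:17266471-17266529, plus strand: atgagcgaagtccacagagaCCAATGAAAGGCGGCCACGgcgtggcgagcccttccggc
Dnajc3, chr14:118937807-118937865, plus strand: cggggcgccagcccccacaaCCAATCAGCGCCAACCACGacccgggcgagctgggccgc
Ero1lb, chr13:12565662-12565720, plus strand: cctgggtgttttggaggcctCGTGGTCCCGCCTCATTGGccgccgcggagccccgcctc
Dnajb11, chr16:22857832-22857882, plus strand: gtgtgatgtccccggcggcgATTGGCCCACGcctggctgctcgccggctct
Herpud1, chr8:94386357-94386407, plus strand: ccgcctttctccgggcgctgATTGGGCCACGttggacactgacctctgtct
The ERSE of Hspa5 began 65 bases before the start of the gene, that of Pdia6 98 bases and that of Dnajc3 105 bases before it. An ERSE was thus present in genes that rose, in one that fell and in one that did not pass.

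A further 121 genes of the same pathways, in 5 lists, gave the setting, and 115 of them were tested. Of these 62 rose and 13 fell (65.2% called, against 58.3% of all genes tested), with a median log2 fold change of 0.25. The share called was 78.9% in COPII and cargo export, 78.3% in the stress regulators, 63% in the translocon list, 56.5% in other degradation and 52.2% in other folding enzymes, the last 2 being below the share over all genes. In COPII and cargo export 13 of 19 rose and 2 fell. Mcfd2, part of a cargo receptor for glycoproteins, rose from 40.2 ± 1.99 to 97.2 ± 13.7 CPM (1.27 ± 0.10), as did the cargo receptor Surf4 (0.74 ± 0.08). Sec24b, a paralog of Sec24d, fell (-0.29 ± 0.06). In the list of the translocon, glycosylation and signal peptide processing 16 of 27 rose and 1 fell. They included the oligosaccharyltransferase subunit Rpn1, which rose from 127 ± 6.50 to 262 ± 63.0 CPM (1.05 ± 0.15), and the TRAP subunit Ssr2 (0.70 ± 0.11). The signal peptidase subunit Sec11c was the one that fell (-0.38 ± 0.07).

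Among other degradation genes 11 of 23 rose and 2 fell, with the ER membrane selenoprotein Selenos (0.84 ± 0.11) and the extraction ATPase Vcp (0.66 ± 0.08) higher and the mannosidase Man1b1 (-0.25 ± 0.07) lower. Of 23 other folding enzymes 9 rose and 3 fell. Pdia5 (1.05 ± 0.29) and the oligosaccharyltransferase component Ostc (0.53 ± 0.11) rose, and the thioredoxin-related Tmx4 (-0.73 ± 0.06) and the peroxiredoxin Prdx4 (-0.54 ± 0.16) fell. In the PERK branch and other stress regulators 13 of 23 rose and 5 fell. Ddit3, which encodes the transcription factor CHOP, rose from 12.9 ± 2.67 to 36.2 ± 3.06 CPM (1.50 ± 0.13, adjusted p = 5.4e-07), and the pseudokinase gene Trib3 from 1.32 ± 0.490 to 6.90 ± 1.02 CPM (2.40 ± 0.26). Chac1, a glutathione-degrading enzyme also known as a target of this branch, fell from 4.22 ± 0.472 to 2.31 ± 0.510 CPM (-0.86 ± 0.22), as did Creb3l2, an ER-bound transcription factor related to ATF6 (-1.22 ± 0.17).

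**Figure D4:**
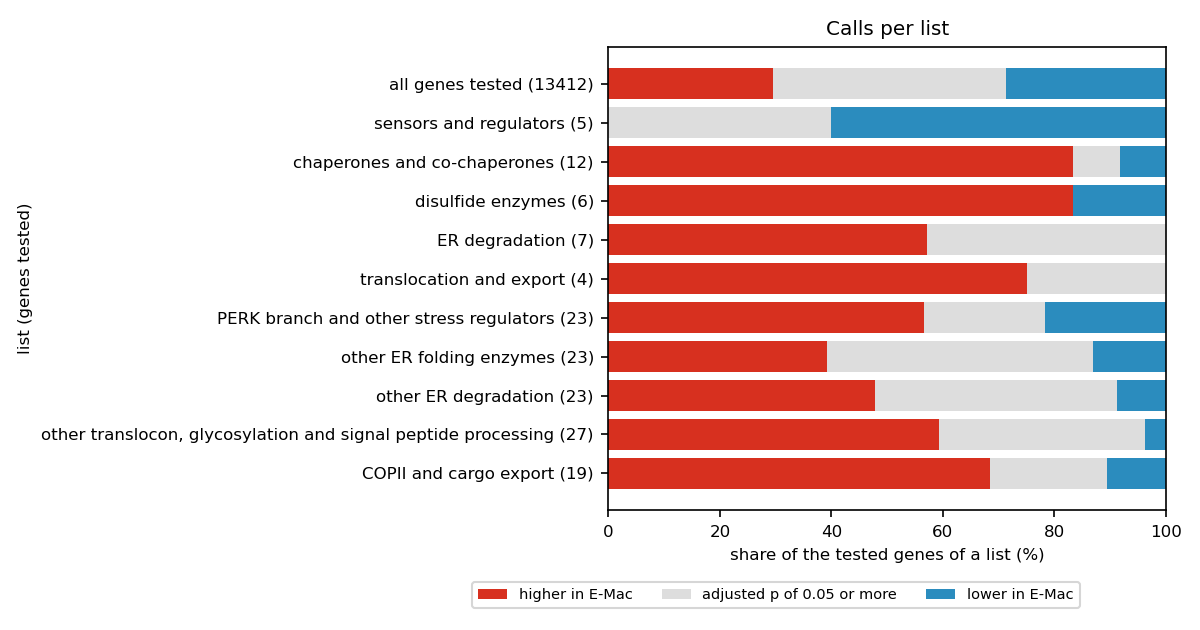
Share (x axis, %) of the tested genes of each list (y axis, number tested in brackets) that was higher (red), lower (blue) or not called (grey) in E-Mac. Over all 13412 genes tested 29.5% were higher and 28.8% lower, while 10 of the 12 chaperones and none of the 5 sensors and regulators were higher; of the 23 other stress regulators 13 were.

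The E-Mac libraries fell into 2 pairs for these genes, as they did over all genes tested, and markers of other cells moved with them. In a principal component analysis of the log2 CPM of all genes tested, the second axis held 6.73% of the variance. E-Mac 1 and 3 lay at -26.2 and -22.0 on it, and E-Mac 2 and 4 at 20.6 and 28.9. The split is thus not particular to these genes. Of the 22 genes called higher, 18 had E-Mac 1 and 3 both above E-Mac 2 and 4. The 12 chaperones and co-chaperones summed to 2114, 2401, 2227 and 2234 CPM in Mac 1 to 4 and to 4649.9, 3681, 4690.4 and 3147 CPM in E-Mac 1 to 4. The 21 granulocyte markers summed to 41780.2, 40991, 39954 and 37753 CPM in Mac and to 12599.8, 19855, 13266 and 17182 CPM in E-Mac. E-Mac 1 and 3 thus had the highest chaperone and the lowest granulocyte sums, but E-Mac 4 was below E-Mac 2 in both. The 20 macrophage core markers summed to 19229, 20550, 20388 and 20483 CPM in Mac and to 21795.5, 20647, 22749 and 17540 CPM in E-Mac. In each group they ordered the libraries as the chaperones did, while the groups overlapped. What this order reflects was not tested. Of the 21 granulocyte markers 14 fell and 2 rose (66.7 and 9.5%, against 28.8 and 29.5% of all genes tested). S100a9 and Ngp were the most abundant of them. In bulk libraries, fewer cells of a type cannot be told apart from less RNA per cell, and the part of granulocytes in the chaperone values was not tested. Stromal markers without Fn1, a gene that macrophages express too, summed to 23.6 to 26.0 CPM in Mac and to 99.2, 495, 76.3 and 549 CPM in E-Mac. When E-Mac 2 and 4, where stromal markers were highest, were left out, all 22 genes were still called higher (log2 fold change 1.79 for Calr, 0.99 for Hspa5, 1.66 for Pdia4 and 2.01 for Sec24d). Since those libraries were the lower ones of E-Mac for 18 of the 22, larger folds without them follow from the pairing itself, and the part of stromal RNA was not tested.

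**Figure D5:**
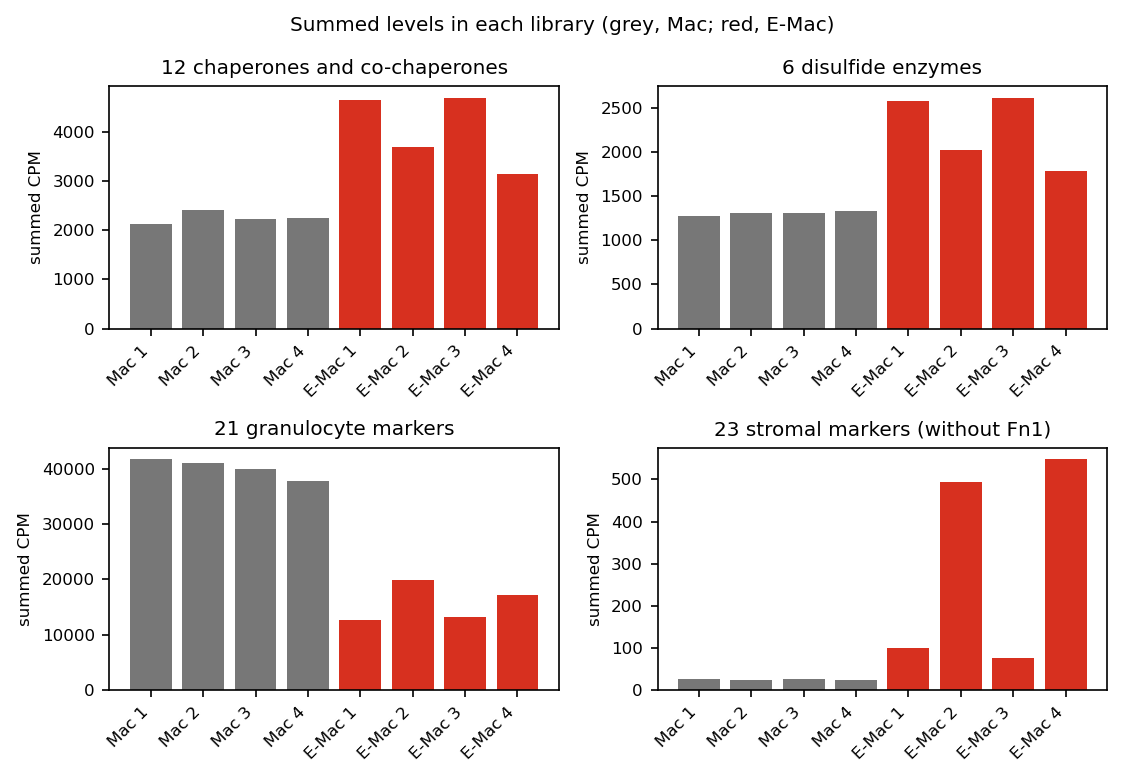
Summed CPM (y axes) of the 12 chaperones and co-chaperones, the 6 disulfide enzymes, the 21 granulocyte markers and the 23 stromal markers other than Fn1 in each library (x axes; grey, Mac; red, E-Mac). E-Mac 1 and 3 have the highest chaperone and disulfide enzyme sums, and E-Mac 2 and 4 the higher granulocyte and stromal sums among E-Mac.

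The labelled cell type was checked with 20 macrophage core markers, none of which was at 0. They summed to 19229 to 20550.4 CPM in Mac and 17540.2 to 22749 CPM in E-Mac (exact two-sided permutation test, p = 0.714), with Lyz2 and Ctss the most abundant. The even sum rested on Lyz2, at 11204 CPM in Mac and 6147 CPM in E-Mac: without it the sum was 8531 to 9243 and 12521 to 15682 CPM (p = 0.0286 by the same exact test). Of the 20 markers 13 rose, 10 of them by 2-fold or more, and 4 fell (65 and 20%, against 29.5 and 28.8% of all genes tested). In Mac the granulocyte markers had the larger mean sum, 40120 CPM against 20163 CPM for the macrophage core. In E-Mac they had the smaller, 15726 against 20683 CPM. The lists hold different genes, so these sums do not give shares of cells. The sums of B and plasma cell markers, whose cells have an expanded ER, were 250.2 to 325 and 191 to 262 CPM (p = 0.114 by the same exact test), with the plasma cell receptor gene Tnfrsf17 at 0 in all libraries and Ighm the most abundant. Of 13 tested markers 7 rose, each by 2-fold or more, and 3 fell (53.8 and 23.1%, against 29.5 and 28.8% of all genes tested). Without Ighm the mean sum was 59.4 CPM in Mac and 98.4 CPM in E-Mac (exact permutation test, p = 0.114). Mac 3 alone of Mac reached into the E-Mac range: the sums were 43.8, 44.8, 99.8 and 49.2 CPM in Mac and 88.9 to 117 CPM in E-Mac. The immunoglobulin gene Igha was at 36.6 CPM in Mac 3 and at 0.186, 0.749 and 0.740 CPM in Mac 1, 2 and 4. Sdc1, which encodes syndecan-1, was at 0.825 CPM in Mac and 33.5 CPM in E-Mac. T and NK cell markers summed to 20.4 to 30.6 and 5.25 to 7.40 CPM, with Cd3e at 0 in all libraries. Dendritic cell markers summed to 204 to 219 and 474 to 589 CPM. Without Bst2 their mean sum was lower in E-Mac, 62.3 against 137 CPM. Of the 12 dendritic cell markers 4 rose and 5 fell (33.3 and 41.7%), the share that rose being near the 29.5% over all genes tested. Erythroid and megakaryocyte markers summed to 114 to 137 and 158 to 222 CPM. Without Pf4 their mean sum was lower in E-Mac, 67.7 against 129 CPM. Of 9 tested markers of this list 2 rose and 7 fell (22.2 and 77.8%, against 29.5 and 28.8% of all genes tested). These 3 sums and those of the granulocyte and stromal lists gave p = 0.0286 in the exact permutation test, the smallest it allows with 4 against 4 libraries. Total counts ran from 11646025 to 15740846 per library.

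On mm10, Hspa5 lies on chromosome 2, 34771970 to 34777547, Calr on chromosome 8, 84841850 to 84846934, Sec24d on chromosome 3, 123267455 to 123365641, Ern1 on chromosome 11, 106394650 to 106487852, and Ppp1r15a on chromosome 7, 45522916 to 45526268. All 35 genes are annotated as protein coding in GENCODE M21. The labels do not say whether reads were counted by strand. Exons of 12 of the 35 overlap exons of another gene, in Hsp90b1 over 10.3% of its exon bases and in each other case over at most 8.2% with any single gene, so reads there may have been left out or shared.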

How the data were processed

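Polyadenylated RNA of 8 libraries (4 Mac, 4 E-Mac) was sequenced. The authors deposited raw counts, reads per gene symbol, in 1 table with a column for each library. Alignment with HISAT2 to mm10 and counting with featureCounts (Subread) are named, per the submitters' processing notes, as are DESeq2 and bcl2fastq; no versions, annotation release or counting settings are stated there. Of 53673 names, 26 had been turned into dates (0.133 to 0.160% of counts) and were left out, among them that of March6. The 37 mitochondrial genes had 0 counts and were not analysed here.

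The whole table was fitted with edgeR 4.0.16 in R 4.3.3 (filterByExpr with a minimum count of 10 and a minimum total of 15, TMM, robust quasi-likelihood test of the group). The Benjamini-Hochberg adjustment was over the 13412 genes tested, with calls under 0.05. Each single adjusted p in the text is from this test or from the same test under a named alternative. The ranges over all alternatives also take in DESeq2 and limma-voom, each with its own test. SE is the log2 fold change divided by the square root of F. No set test was run. Marker sums were compared by exact permutation. Tested on simulated data of 13412 genes, of which 200 were changed, edgeR recovered 59.7, 71.6 and 97% of genes changed 1.5-, 2- and 4-fold and called 11 unchanged ones. Far fewer genes were changed there than the 58.3% called in the data, so these rates do not carry over to this comparison. Libraries of a group were further apart than sampling noise allows (chi-square divided by its degrees of freedom at least 4.85).

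Members, pathway lists and the 7 marker lists (macrophage core, stromal and fibroblast, neutrophil and granulocyte, B and plasma cell, dendritic cell, T and NK cell, erythroid and megakaryocyte) were chosen with earlier results of these data known. Each member is named or counted; of each other pathway list the 2 largest rises and falls among called genes with groups apart are named, and of a marker list its 2 most abundant genes, not all of which are printed. Alternatives were RLE, upper-quartile and total-count scaling, no filter, at least 10 CPM in 4 libraries, no robust option, DESeq2 1.42.0, limma-voom (limma 3.58.1), the replicate number as a block, each library left out, and E-Mac 2 and 4 left out. Gene positions and exon lengths came from GENCODE M21, promoters from RefSeq.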

Additional observations from a re-analysis of the deposited data

Results flagged for a closer look

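In 84 groups of 4 libraries (35 genes and 7 marker sums in each group), 8 held 1 library whose gap to the nearest other exceeded Dixon's 95% critical share of the group's range; chance flags about 1 in 20 such groups. Canx was 306 CPM in Mac 3, the lowest of Mac, and Edem2 was 80.1 CPM in Mac 4, the highest of Mac. Sec24d was 24.2 CPM in Mac 4, the highest of Mac and still below all E-Mac libraries. Among E-Mac, Ero1l was lowest in E-Mac 3 at 119.5 CPM, and Syvn1 in E-Mac 4 at 87.5 CPM; both lay above all Mac libraries. Mac 1 had the lowest macrophage core sum of Mac, 19229 CPM, the lowest dendritic cell sum, 204 CPM, and the highest T and NK cell sum, 30.6 CPM.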

How the results depend on the processing

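Of the 34 tested members 22 kept call and direction in each of the 18 alternatives, 19 of them higher and 3 lower (Ern1, Eif2ak3 and Ppp1r15a). The count of members called lower was 5, and became 8 with upper-quartile factors and 9 with total-count scaling, where the median of the members was 0.25. Leaving out 1 library at a time gave 5 to 8 members lower, with 8 without Mac 1 and without E-Mac 1. The count of members higher stayed within 19 to 24. With the replicate number as a block, 22 members were higher, 5 lower and 7458 of all genes were called. Same-numbered libraries did not deviate together (r from -0.11 to 0.03 over 4 pairs). The labels do not say whether the numbers pair the libraries, and 4 such values are too few to decide it.

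Members that had not passed changed sign as follows, and the cause was not tested. Dnajc3 was 0.00414 with no filter and 0.0804 without E-Mac 2 and 4, and ran from -0.0555 to 0.0252 with 1 library left out. Edem1 was -0.0269 under upper-quartile and -0.0729 under total-count scaling. Edem2 was 0.0170 without E-Mac 2 and 4 and ran from -0.0463 to 0.00761 with 1 library left out. Sec61b was -0.0573 under upper-quartile and -0.103 under total-count scaling, and ran from -0.0238 to 0.118 with 1 library left out. Derl3, tested in 7 alternatives, was called lower with no filter, without Mac 1 and without E-Mac 1 (-2.07, -2.48 and -2.87). Without its highest member, the E-Mac minus Mac difference of a marker sum turned from -2389 to 279.8 CPM for stromal (Fn1), from -48.0 to 39.0 for B and plasma cell (Ighm), from 321 to -74.5 for dendritic cell (Bst2) and from 65.2 to -61.0 for erythroid and megakaryocyte (Pf4), and rose from 520.2 to 5577 for macrophage core (Lyz2). Depth limited the test of Derl3 alone among the members.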

Other observations

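Genes of the stress regulator list that act in apoptosis and on eIF2 were also read; they were chosen here after their values had been seen. Bcl2l11, which encodes the death-promoting BIM, rose from 45.5 to 118.7 CPM (1.38 ± 0.08, n = 4 and 4), and Bax (1.14 ± 0.12) and Bak1 (0.83 ± 0.07), the pore formers of mitochondrial apoptosis, rose too. Bbc3, which encodes the death-promoting PUMA, did not pass (-0.21, adjusted p = 0.284). Tmbim6, an ER membrane protein known to restrain cell death, was at 739 CPM in Mac and 1047 CPM in E-Mac (0.50 ± 0.07). Eif2s1, the gene for the eIF2 subunit that PERK phosphorylates, rose (0.89 ± 0.09), while Ppp1r15b, the constitutive counterpart of Ppp1r15a, fell slightly (-0.21 ± 0.07, adjusted p = 0.0168). Atf3, a stress-induced transcription factor, had a mean of 106 CPM in E-Mac against 267 CPM in Mac but did not pass (-1.33 ± 0.50, adjusted p = 0.0569). It was at 127.7, 547, 252 and 140.5 CPM in Mac and at 126.2, 102, 118 and 76.5 CPM in E-Mac. Mac 2 thus stood far above the other Mac libraries, and E-Mac 1 lay just below Mac 1. Atf4 itself rose from 259 to 334 CPM (0.37 ± 0.10, adjusted p = 0.00638).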
